A study of Mus musculus with 12 samples.

Results

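The cytosolic ribosomal protein genes were followed across cortex from mice with and without a mutant human tau transgene and with and without 1 null copy of Tia1. Members were the rows of the gene count table whose symbol was Rpl or Rps followed by a number and at most 1 letter (a, l or x), together with Rplp0, Rplp1, Rplp2 and Rpsa. The rule took 81 of 24062 symbols, 49 for the large and 32 for the small subunit, and used no measured value. It left out the S6 kinase genes (Rps6k), rows named as pseudogenes (-ps), and a few true components with other symbols, such as Fau and Gnb2l1, which are described separately. Of the 81 members, 77 passed the filter on low counts and were tested, 45 of the large and 32 of the small subunit, and the other 4 (Rpl26, Rpl10l, Rpl39l and Rpl3l) had too few counts.

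Total RNA from the cortex of mice aged 9 months was sequenced in 12 libraries, 3 mice in each of 4 groups. By their titles, WT mice carried neither allele and Tia1+/- mice were heterozygous for a Tia1 null allele, called the Tia1 deletion here. PS19 mice (titled P301S in the labels) were those with human tau with the P301S mutation, the 1N4R isoform, expressed from the mouse prion protein promoter, and with both copies of Tia1. P301S Tia1+/- mice were those with the transgene and 1 null allele of Tia1. The study's methods name a Tia1 line backcrossed to C57BL/6J and a PS19 line of mixed B6;C3 origin, crossed with each other. No group lacked both copies of Tia1. Groups followed the sample titles. In the labels the genotype field of these last groups with the deletion is exchanged, each naming the other's genotype, so every comparison that uses either of them rests on the titles.

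The cytosolic ribosome is built from a small (40S) subunit, which reads the mRNA, and a large (60S) subunit, which joins amino acids. Each holds rRNA and many proteins, most of them needed in equal number. Ribosomal protein mRNAs are among the most abundant in most cells, are short, and have left many processed pseudogenes in mammalian genomes. Many of them begin with a terminal oligopyrimidine (TOP) tract, a C followed by a run of pyrimidines, through which mTOR signalling and Larp1 control their translation. TIA1, an RNA-binding protein of stress granules, is also known to bind such mRNAs when cells are starved.

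The start sites of a few members show how unequal the tracts are in the reference. Each line gives 30 bases on the gene strand, 10 before the RefSeq start and 20 from it on (GRCm38.p6), and capitals mark the tract. A tract was counted where a C not preceded by C or T was followed by at least 4 further C or T letters and began within 10 bases of the start. Rps6, Rpl27a and Rpl18 are shown as members with a tract at or near the start, Rps2 as a member with a late and short one, and Rps9, Rplp2 and Rps24 as members the comparisons turn on in which no run met the rule.
Rps6, chr4:86857348-86857377, minus strand: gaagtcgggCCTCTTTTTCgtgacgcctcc
Rpl27a, chr7:109519185-109519214, plus strand: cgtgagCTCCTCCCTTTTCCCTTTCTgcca
Rpl18, chr7:45718061-45718090, plus strand: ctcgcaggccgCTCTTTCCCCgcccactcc
Rps2, chr17:24720053-24720082, plus strand: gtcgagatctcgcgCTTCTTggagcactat
Rps9, chr7:3704031-3704060, plus strand: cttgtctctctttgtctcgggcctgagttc
Rplp2, chr7:141447641-141447670, plus strand: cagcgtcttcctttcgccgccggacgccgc
Rps24, chr14:24490668-24490697, plus strand: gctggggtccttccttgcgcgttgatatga

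A tract was found in 30 of the 60 members with a RefSeq start (50%), against 4516 of 16721 other genes of the count table (27%). A match describes these letters only. In Rps9, Rplp2 and Rps24 the longest pyrimidine run of the window begins with T, which the rule does not take.

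Libraries held 11978962 to 19146484 counts, and members took 1.54% to 1.83% of them. The pre-rRNA transcript Rn45s took 0.117% to 2.71% of counts, with the highest share in PS19 replicate 2. Markers of other regions of the brain stood apart in some libraries. The summed level of 11 olfactory bulb genes (Omp, S100a5, Doc2g and others) was 1538, 248 and 80.1 CPM (counts per 1000000 counts of the scaled library) in WT, 40.1, 43.2 and 240 in Tia1+/-, 40.3 to 53.6 in PS19 mice and 996 to 1139 in P301S Tia1+/-. The 10 striatal markers summed to 2704 CPM in Tia1+/- replicate 3 and to 225 to 475 CPM elsewhere. The hemoglobin genes Hba-a1, Hba-a2, Hbb-bs and Hbb-bt were at 0 in every library, while the other blood marker, Alas2, was at 1.45 to 4.34 CPM. Xist was at 217 to 367 CPM in every Tia1+/- and P301S Tia1+/- library and at most 0.783 CPM in the others, and the Y-linked Ddx3y was at 119 to 169 CPM in WT and PS19 and at most 0.119 CPM in the groups with the Tia1 deletion. The sex of the mice and the Tia1 deletion therefore cannot be told apart in these groups, although the methods state that mice were male unless noted. Tia1 itself averaged 82.0 ± 10.3 CPM in WT mice, 68.0 ± 10.3 in Tia1+/-, 73.5 ± 3.87 in PS19 mice and 74.7 ± 2.76 in P301S Tia1+/- (SD, n = 3). Its log2 difference between Tia1+/- and WT was -0.27 (SE 0.116, adjusted p = 0.239 by edgeR), so the targeted gene did not pass the test. The study's methods describe the mutant allele as frame shifted and making no TIA1 protein, and counts over the whole gene need not show such an allele.

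The counts did not check the transgene label. The mouse tau gene Mapt was at 256, 369 and 413 CPM in WT mice, 502, 455 and 344 in Tia1+/-, 439, 462 and 457 in PS19 mice, and 336, 357 and 353 in P301S Tia1+/-. PS19 lay above WT (log2 difference 0.39, adjusted p = 0.291 by edgeR), whereas P301S Tia1+/- lay within the WT range (0.01, adjusted p = 0.980) and overlapped Tia1+/- with a lower mean (-0.31, adjusted p = 0.389). Prnp, whose promoter drives the transgene, averaged 1638 ± 278 CPM in WT mice, 1527 ± 478 in Tia1+/-, 2100 ± 73.0 in PS19 mice and 1480 ± 67.6 in P301S Tia1+/- (SD, n = 3). Its log2 difference was 0.36 between PS19 and WT (adjusted p = 0.405 by edgeR) and -0.05 between P301S Tia1+/- and Tia1+/- (adjusted p = 0.933). Neither gene passed a test in any comparison, and neither was higher on average in the mice labelled P301S Tia1+/- than in those labelled Tia1+/-. Whether reads of the human transgene fall into these rows is not given in the sources used here.

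The members were expressed at very unequal levels per base. On the scale of CPM per kilobase of exon, averaged over the 12 libraries, Rpl41 was highest at 716, followed by Rplp1 at 699, Rps29 at 655, Rpl9 at 527, Rps2 at 514 and Rpl3 at 510. Rpl41 encodes a very short basic peptide between the subunits, Rplp1 an acidic protein of the stalk that recruits translation factors, Rps29 a zinc-binding protein of the small subunit, and Rpl3 a protein that reaches toward the peptidyl transferase centre. The ranges over libraries of Rpl41 and Rplp1 overlapped, so the order between them is not set beyond their spread. The median of the 77 tested members was 239 CPM per kilobase. Large and small subunit members over 50 CPM had similar medians, 244 CPM per kilobase over 43 genes and 261 over 29 genes. The 10 members with the highest CPM held 25.9% of the summed level.

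**Figure D1:**
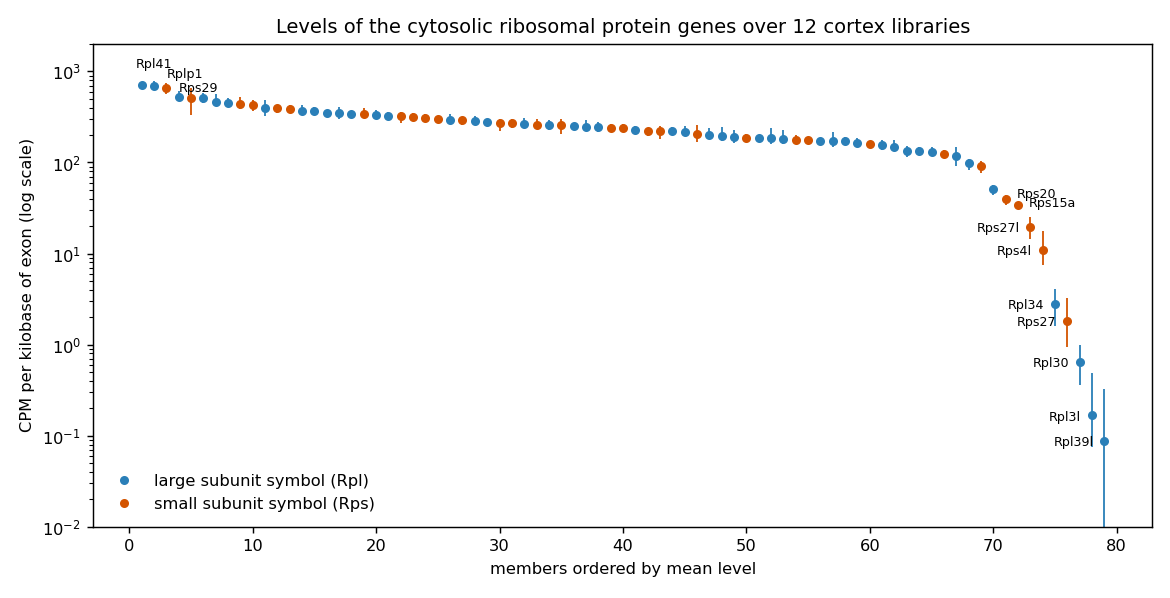
Level of the 79 ribosomal protein genes with any counts, as CPM per kilobase of exon on a log axis, ordered by their mean over 12 libraries; vertical lines run from the lowest to the highest library, blue points are large and orange points small subunit genes. Most genes sit between about the levels of Rpl22 (50.6) and Rpl41 (716), and a tail of 7 members falls under 20.

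A few members of the tail encode proteins that every ribosome holds. Rpl34 averaged 2.81 CPM per kilobase, Rps27 1.84 and Rpl30 0.653, with 344, 187 and 117 counts over all libraries together. Rpl26 had no count in any of the 12 libraries, which allows up to 3 counts, or 0.157 to 0.25 CPM by library. Its locus lies at 11:68901583-68906989 (GENCODE M21, GRCm38), and 71.3% of the 50-base stretches of its mRNA also occur in other annotated genes. Rpl34, Rps27 and Rpl30 share 33.3%, 54.2% and 25.4% of their stretches, and Rpl9, at 389 CPM, shares 93.3%. The part of shared sequence in these levels was not tested. Over the members the median share was 42.4%, and 33 members shared over 50%. Across the 77 tested genes in the same libraries, Spearman's rho of the level per kilobase was 0.41 with the shared percentage and -0.38 with exon length, given as a description. How reads that fit several places were counted is not given in the sources used here, so single levels of members with many copies are uncertain.

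Tissue-restricted paralogues were at or near the floor. Rpl3l, the striated muscle form of Rpl3, averaged 0.167 CPM per kilobase against 510 for Rpl3. Rpl39l, a male germ cell form, averaged 0.0878 against 172 for Rpl39, and Rpl10l, an autosomal copy of the X-linked Rpl10 used in testis, had no count. Rps27l, a p53-inducible paralogue of Rps27, averaged 19.7 CPM per kilobase and so exceeded the 1.84 of Rps27 in these counts. Rps4l averaged 11.1 against 314 for its X-linked partner Rps4x. The members Rpl22 (50.6), Rps20 (39.3) and Rps15a (34.3) have annotated exon lengths of 2051, 3706 and 5179 bases, far above the member median of 835, which lowers a level per kilobase.

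The summed level of the members did not separate the genotypes. Summed over the 81 members, the level was 17555, 18118 and 16576 CPM in WT mice, 16010, 17696 and 16222 in Tia1+/-, 17311, 16146 and 15943 in PS19 mice, and 17766, 16868 and 15992 in P301S Tia1+/-. All 4 groups overlapped. Means were 17416 ± 780, 16643 ± 918, 16467 ± 738 and 16875 ± 887 CPM in that order (SD, n = 3). PS19 stood at 0.945 of WT, P301S Tia1+/- at 1.02 of PS19, and Tia1+/- at 0.956 of WT. In whole tissue, fewer cells of a type and less RNA per cell cannot be told apart. The ratio of the summed large to the summed small subunit level stayed between 1.53 and 1.61 in the 12 libraries.

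**Figure D2:**
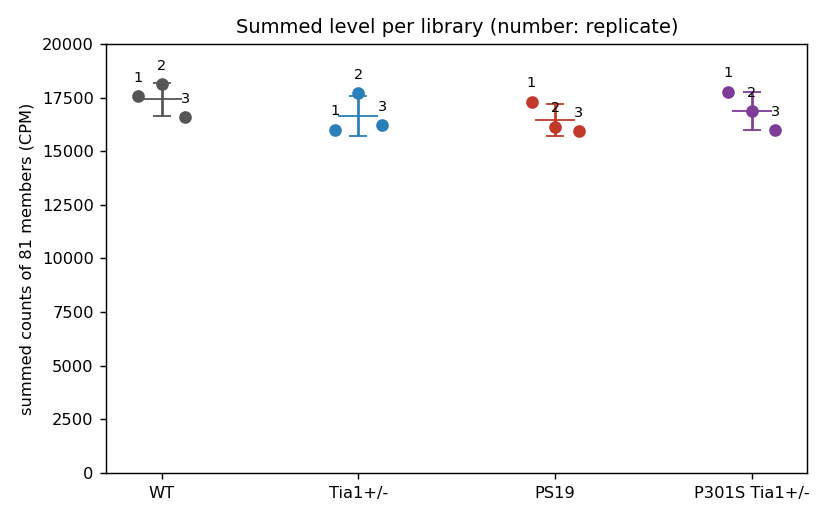
Summed CPM of the 81 ribosomal protein genes in each library, by genotype, with the mean and SD of 3 mice; numbers are replicates and the axis starts at 0. The libraries run from 15943 to 18118 CPM and the 4 groups overlap.

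Within a genotype the members moved together from mouse to mouse. In Tia1+/- replicate 2, 72 of 77 members were above their group mean. The same held for 73 members in PS19 replicate 1 and 71 in P301S Tia1+/- replicate 1, whereas 5 were above it in P301S Tia1+/- replicate 3 and 11 in WT replicate 3. The median deviation of the members from the group mean ran from -0.072 (WT replicate 3) to 0.094 (Tia1+/- replicate 2) on the log2 scale, while the median of all genes stayed between -0.009 and 0.010. The spread of this median between replicates was 0.068. Members share their library, so this shared deviation means that 77 genes are not 77 separate measurements of a genotype. Gene by gene the members were steady. The residual SD on the log2 scale had a median of 0.097 over the 72 members above 50 CPM (0.049 to 0.255) against 0.140 over 4716 other genes above that level.

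**Figure D3:**
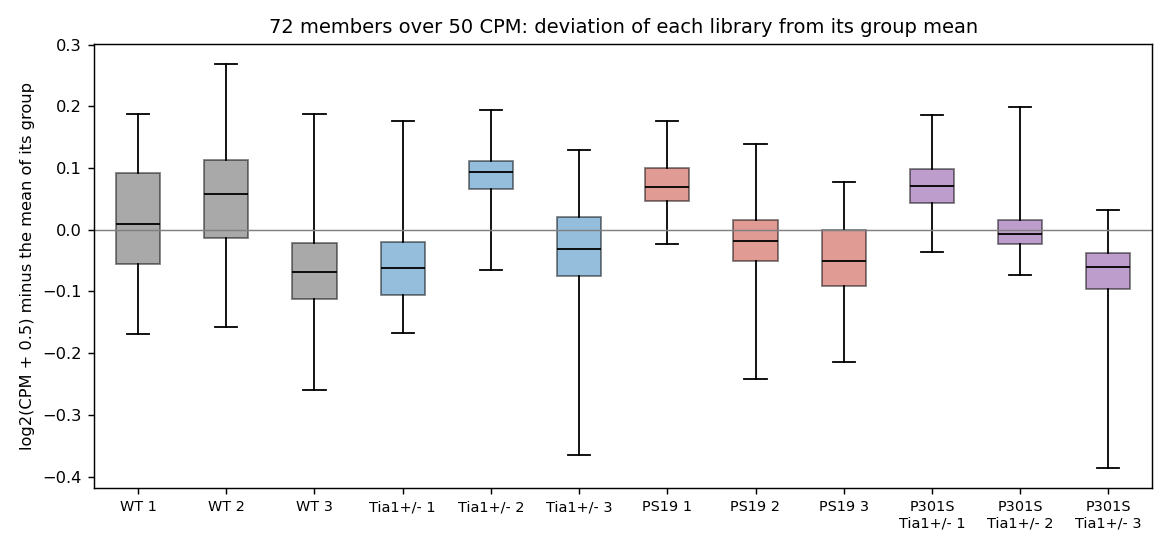
Deviation of each of 72 ribosomal protein genes above 50 CPM from its group mean, on the log2 scale, by library; boxes show quartiles and whiskers the lowest and highest gene. Whole boxes sit above 0 in some libraries and below it in others of the same genotype, as for replicates 1 and 3 of P301S Tia1+/-.

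The first comparison asked whether the tau transgene altered ribosomal protein mRNAs, PS19 against WT. No member passed the test (edgeR quasi-likelihood test, Benjamini-Hochberg adjusted over 15440 genes, threshold 0.05), and 0% of all genes did. The members had a median log2 difference of -0.086 and 61 of 77 lay below 0, beside a median of -0.007 over all genes. The median is close to the spread of 0.068 between replicates. At an unadjusted p under the threshold there were 6 members, all lower in PS19, or 7.79% of members against 16.3% of all genes. Groups did not overlap for 12 members, all lower in PS19 (15.6%), against 20.8% of all genes. DESeq2 on the same libraries called no member and 2.77% of all genes, and edgeR on the 6 libraries of these groups alone called 0% of genes. In this comparison 0 of 11 bulb genes were above 0 (median -5.43), and all 8 oligodendrocyte (0.54) and all 8 microglia markers (0.61) were. The part of the oligodendrocyte and microglia markers in the member values was not tested.

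Rpl23a, a protein at the exit of the peptide tunnel (11:78180932-78183584), had the smallest p in PS19 against WT. It stood at 294, 317 and 266 CPM in WT mice, 246, 264 and 264 in Tia1+/-, 255, 233 and 248 in PS19 mice, and 265, 254 and 231 in P301S Tia1+/-. Every PS19 library lay below every WT library, with a log2 difference of -0.25 (SE 0.086, adjusted p = 0.213 by edgeR). Of its 50-base stretches 82.6% occur elsewhere, 3 snoRNA genes lie inside the locus, and it overlaps Tlcd1 on the other strand. Whether counting used the strand is not given in the sources used here. Rplp2, a stalk protein (7:141447370-141451585), was at 126, 144 and 108 CPM in WT and 111, 104 and 88.8 in PS19, which overlap, with a log2 difference of -0.31 (SE 0.114, adjusted p = 0.234 by edgeR). The remaining members of the 6 were the large subunit genes Rpl21 (-0.28), Rpl15 (-0.18) and Rpl18 (-0.18) and the small subunit gene Rps9 (-0.25), with adjusted p from 0.262 to 0.297 by edgeR. The lowest log2 difference of all, -0.46 for Rps27, came from a gene near 1 CPM whose groups overlap (adjusted p = 0.597 by edgeR), and Rps27l stood at -0.32 (adjusted p = 0.312). The 5 highest were Rps4l (0.22), Rpl30 (0.16), Rps21 (0.12), Rps16 (0.10) and Rpl34 (0.10), with adjusted p from 0.633 to 0.914 by edgeR.

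The second comparison asked what the loss of 1 Tia1 copy did in tau mice, P301S Tia1+/- against PS19. No member passed the test with all 12 libraries, against 0.24% of all genes (37). The median over the members was 0.043, with 49 of 77 above 0, beside 0.010 over all genes. At an unadjusted p under the threshold there were 4 members, all higher, or 5.19% of members against 19.3% of all genes. Groups did not overlap for 18 members, 16 of them higher in P301S Tia1+/- (23.4% in all), against 38.5% of all genes. DESeq2 called no member and 5.28% of genes. Fitted on the 6 libraries of these groups alone, edgeR called 1 member, Rps9, and 20.1% of all genes. All 11 bulb genes were above 0 in this comparison (median 6.16) and all 10 markers of cortical excitatory neurons below 0 (median -0.68).

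Rps9, a small subunit protein at the mRNA entry (7:3703993-3706897), was the member nearest to the threshold in this comparison. It stood at 224, 208 and 175 CPM in WT mice, 172, 187 and 203 in Tia1+/-, 181, 175 and 154 in PS19 mice, and 211, 218 and 213 in P301S Tia1+/-. The P301S Tia1+/- libraries had an SD of 3.32 CPM around their mean of 214 and lay above every PS19 library, while WT overlapped both groups and Tia1+/- overlapped PS19. The log2 difference between P301S Tia1+/- and PS19 was 0.33 (1.26-fold, SE 0.104, adjusted p = 0.145 by edgeR). In the 6-library fit the adjusted p was 0.0143 by edgeR. With the bulb level of each library as a covariate the log2 difference was -0.07 (adjusted p = 0.803 by edgeR). On the log2 scale that level was 5.81 to 6.12 in P301S Tia1+/- and -0.24 to 0.67 in PS19. It nearly coincides with the group here, so this fit cannot tell bulb content and genotype apart. Rps9 shares 33.0% of its stretches with other genes.

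**Figure D4:**
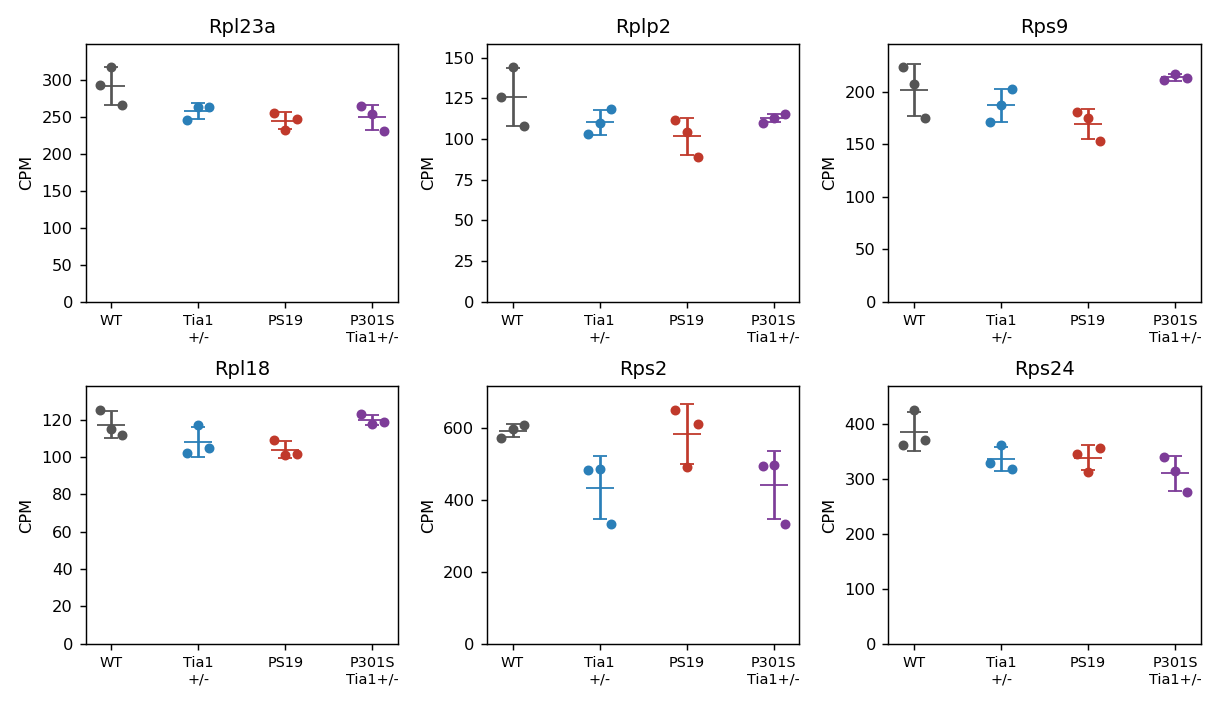
Level in CPM of Rpl23a, Rplp2, Rps9, Rpl18, Rps2 and Rps24 in each of the 12 libraries, with the mean and SD of 3 mice per genotype; axes start at 0. Rps9 and Rpl18 are tight in P301S Tia1+/-, above every PS19 and Tia1+/- library but overlapping WT. Rps2 has a low replicate 3 in each group with the Tia1 deletion.

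The other 3 members of that set were Rpl18 (0.20), Rpl22 (0.18) and Rpl27 (0.16), large subunit genes with adjusted p of 0.198, 0.249 and 0.253 by edgeR. Rpl18 was at 109, 101 and 101 CPM in PS19 and 123, 118 and 119 in P301S Tia1+/-. Rpl22, an RNA-binding protein on the surface of the large subunit, was at 99.9, 97.3 and 99.3 CPM in PS19 and 116, 112 and 108 in P301S Tia1+/-. Neither gene overlapped between these groups. Rpl22 shares only 5.19% of its stretches with other genes, and Rpl18 74.3%. Rpl36 (0.21) and Rps13 (0.21) had adjusted p of 0.266 and 0.338 by edgeR. At the other end were Rpl34 (-0.45), Rps2 (-0.40), Rpl30 (-0.28), Rps15 (-0.16) and Rpl17 (-0.15), with adjusted p from 0.261 to 0.766 by edgeR.

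Rps2, a small subunit protein near the mRNA entry (17:24718116-24721929), varied most between mice of a group among the 72 members above 50 CPM (residual SD 0.255). It stood at 572, 598 and 607 CPM in WT mice, 483, 487 and 332 in Tia1+/-, 651, 490 and 610 in PS19 mice, and 494, 498 and 332 in P301S Tia1+/-. All libraries with the Tia1 deletion lay below all WT libraries, and replicate 3 was lowest in each of these groups. The log2 difference was -0.45 between Tia1+/- and WT (SE 0.184, adjusted p = 0.217 by edgeR) and -0.42 between P301S Tia1+/- and WT (adjusted p = 0.253 by edgeR). The SDs of 88.4, 83.4 and 94.6 CPM in Tia1+/-, PS19 and P301S Tia1+/- stand against 18.2 CPM in WT. Of its stretches 79.0% occur elsewhere, in 71 pseudogenes among others, and Snora64 and Snora78 lie inside the locus. With the bulb covariate the log2 difference between Tia1+/- and WT was -0.78 (adjusted p = 0.0439 by edgeR), and that between P301S Tia1+/- and PS19 went from -0.40 to 0.16. Bulb level and group nearly coincide between P301S Tia1+/- and PS19, so the fit cannot tell them apart there.

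Loss of 1 Tia1 copy without the transgene, Tia1+/- against WT, gave no member past the test, against 0.712% of all genes (110). The median over members was -0.055, with 55 of 77 below 0, beside 0.006 over all genes. Rps2 and Rps27l were the 2 members (2.60%) at an unadjusted p under the threshold, against 19.1% of all genes. Rps27l was at 14.6, 12.2 and 12.3 CPM in WT and 10.6, 10.1 and 10.1 in Tia1+/-, without overlap (log2 difference -0.34, SE 0.150, adjusted p = 0.244 by edgeR). Groups did not overlap for 7 members, 6 lower in Tia1+/- (9.09%), against 20% of all genes. DESeq2 called no member and 6.59% of genes, and the 6-library fit no member and 0.0408% of genes. All 10 striatal markers (median 2.60) and all 8 oligodendrocyte markers (0.88) were above 0 and all 11 bulb genes below it (-2.98), and the part of the striatal and oligodendrocyte markers in the member values was not tested.

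The transgene by title on the Tia1+/- background, P301S Tia1+/- against Tia1+/-, gave no member and 0% of genes past the test. The median over members was 0.014 (42 of 77 above 0), beside 0.006 over all genes. Rpl22 (0.21), Rplp0 (0.23) and Rpl13a (0.22) were the 3 members (3.90%) at an unadjusted p under the threshold, all higher, against 15.6% of all genes. Their adjusted p were 0.265, 0.266 and 0.302 by edgeR. Groups did not overlap for 11 members, 9 higher (14.3%), against 26% of all genes. DESeq2 called no member and 2.53% of genes, and the 6-library fit no member and 2.22% of genes. Here all 11 bulb genes were above 0 (median 3.52), against 0 of 10 striatal markers (-2.20) and 0 of 8 oligodendrocyte markers (-0.52).

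P301S Tia1+/- against WT, which differ in both alleles, gave no member past the test, against 1.31% of all genes (203). The median over members was -0.030 (48 of 77 below 0), beside 0.024 over all genes. At an unadjusted p under the threshold there were 6 members, all lower (7.79%), against 18% of all genes. They were Rps24, Rpl23a, Rpl17, Rpl23, Rpl21 and Rps2, with log2 differences from -0.42 (Rps2) to -0.23 (Rpl23 and Rpl23a) and adjusted p from 0.138 to 0.253 by edgeR. Groups did not overlap for 13 members, 5 higher and 8 lower (16.9%), against 23.2% of all genes. DESeq2 called 1 member, Rps24, and 6.98% of genes, and the 6-library fit no member and 0.0938% of genes. All 11 bulb genes (median 0.73), all 8 oligodendrocyte (0.28) and all 8 microglia markers (0.24) were above 0. Of 10 markers of cortical excitatory neurons 1 was above 0 (-0.33).

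Rps24 (14:24487125-24496959), a small subunit protein whose mRNA is known to be alternatively spliced near its end, had the smallest p of the members in that comparison. It stood at 361, 427 and 371 CPM in WT mice, 330, 361 and 318 in Tia1+/-, 346, 314 and 357 in PS19 mice, and 341, 315 and 276 in P301S Tia1+/-. All WT libraries lay above all P301S Tia1+/- and all PS19 libraries. The log2 difference between P301S Tia1+/- and WT was -0.32 (SE 0.103, adjusted p = 0.138 by edgeR). DESeq2 gave an adjusted p of 0.0468. Gene counts do not tell its isoforms apart.

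The difference between the tau effect without and with the Tia1 deletion (the interaction) passed the test for no member and for 0.00648% of all genes (1). The median over members was 0.092 (60 of 77 above 0), beside 0.005 over all genes. In the interaction all 11 bulb genes were above 0 (median 9.14), against 1 of 10 striatal markers (-3.20) and 0 of 8 oligodendrocyte markers (-1.10). The part of the striatal and oligodendrocyte markers in these member values was not tested. The 7 members (9.09%) at an unadjusted p under the threshold were all positive, against 22.9% of all genes. They were Rps27l (0.53), Rps9 (0.44), Rpl18 (0.32), Rpl22 (0.32), Rplp0 (0.29), Rpl15 (0.26) and Rpl7a (0.23), with adjusted p from 0.124 (Rps9) to 0.194 (Rplp0) by edgeR. DESeq2 called no member and 7.63% of genes. For Rpl7a, Rpl18 and Rpl22 every PS19 library lay below every WT library and every P301S Tia1+/- library above every Tia1+/- library. Such opposite, non-overlapping groups, by tau or by the deletion, were found for 3.90% of members and 6.08% of all genes. The comparisons share their groups, so their medians are not separate measurements. For instance, the 3 WT libraries stand on the same side of PS19 against WT, Tia1+/- against WT and P301S Tia1+/- against WT, and all 3 medians are below 0.

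Other short genes also had medians away from 0 in some comparisons, and the members are short. The exons of the tested members have a median of 835 bases, against 3141 for other genes, and 67.5% of members fall under 1000 bases against 6.03% of other genes. The 917 other genes under 1000 bases had medians of -0.049, 0.093, -0.006, 0.055, 0.073 and 0.094 in the 6 comparisons, in the order described here with the interaction last. In P301S Tia1+/- against WT their sign was opposite to the member median of -0.030. In Tia1+/- against WT they stayed near 0 beside a member median of -0.055. With a trend on exon length and GC content removed from each library, the member medians were -0.065 in PS19 against WT, -0.019 in P301S Tia1+/- against PS19, -0.037 in Tia1+/- against WT, -0.034 in P301S Tia1+/- against Tia1+/-, -0.075 in P301S Tia1+/- against WT and 0.015 in the interaction. The sign turned in P301S Tia1+/- against PS19 and against Tia1+/-. The interaction median went from 0.092 to 0.015. The medians against WT stayed below 0. Rps9 in P301S Tia1+/- against PS19 kept a log2 difference of 0.27.

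**Figure D5:**
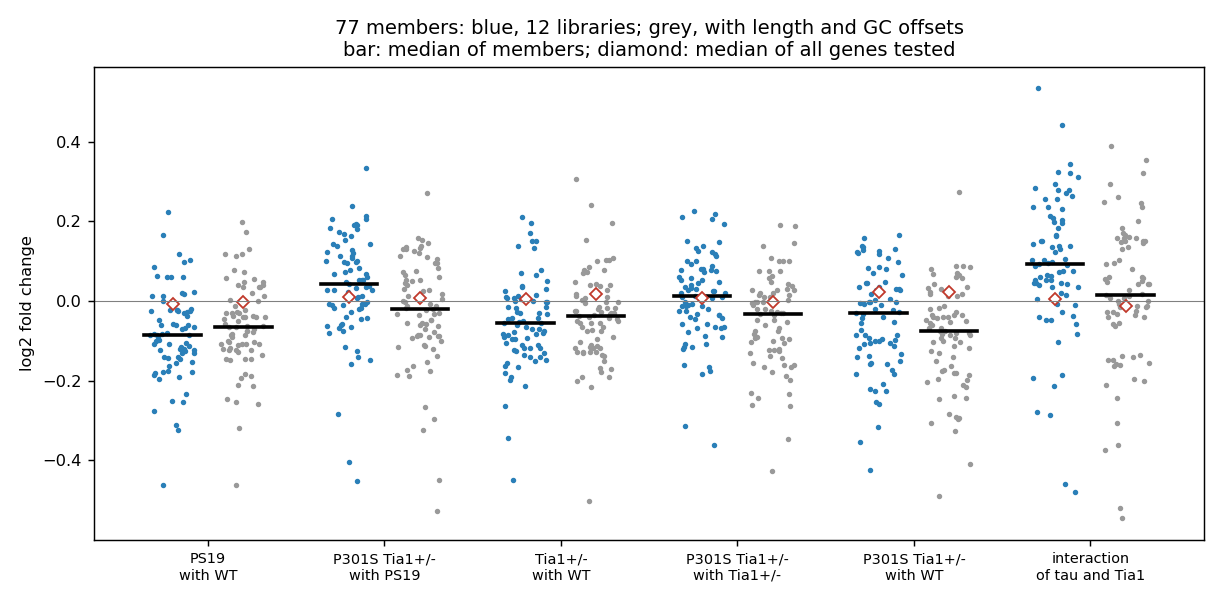
Log2 differences of the 77 tested ribosomal protein genes in the 6 comparisons, from the fit of 12 libraries (blue) and with offsets for exon length and GC content (grey); bars mark the median of the genes and diamonds the median of all genes tested. Medians in P301S Tia1+/- with PS19 go from 0.043 to -0.019, and the interaction median from 0.092 to 0.015.

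The genes of the stalk, which draws elongation factors to the ribosome, were unequal. Rplp0, its anchor, was at 237, 205 and 197 CPM in WT mice, 188, 211 and 196 in Tia1+/-, 219, 196 and 194 in PS19 mice, and 238, 230 and 227 in P301S Tia1+/-. Rplp1 was at 331, 342 and 312, then 335, 389 and 369, then 360, 350 and 318, then 369, 350 and 358 CPM in the same order. P301S Tia1+/- lay above PS19 and Tia1+/- in every library for Rplp0 and overlapped both groups for Rplp1. Neither gene passed any test.

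Members with known roles outside peptide synthesis passed no test. Rpsa, also known as the laminin receptor, averaged 442 ± 22.8 CPM in WT mice, 434 ± 22.4 in Tia1+/-, 406 ± 30.9 in PS19 mice and 442 ± 13.9 in P301S Tia1+/- (SD, n = 3). Rps6, the substrate of the S6 kinases below mTOR, averaged 356 ± 23.8, 336 ± 10.6, 327 ± 17.2 and 329 ± 12.6 CPM. Rps27a, made as a fusion with ubiquitin, averaged 213 ± 18.4, 217 ± 17.8, 200.5 ± 22.4 and 218 ± 20.3 CPM. Rpl5 and Rpl11, which carry the 5S rRNA and can hold back Mdm2, averaged 379 and 173 CPM in WT mice, 340 and 167 in Tia1+/-, 338 and 159 in PS19 mice, and 340 and 172 in P301S Tia1+/-. The smallest adjusted p among these 5 genes was 0.324 by edgeR, for Rpl5 in Tia1+/- against WT.

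The 4 X-linked members, which lie on the chromosome whose silencing Xist directs, passed no test. Rpl10 averaged 274, 273, 276 and 268 CPM in WT, Tia1+/-, PS19 and P301S Tia1+/-, and Rps4x 312, 297, 295 and 322. Rpl36a averaged 91.0, 89.1, 85.9 and 81.9 CPM, and Rpl39 118, 98.2, 100.4 and 104. The largest log2 difference among them was -0.26, for Rpl39 in Tia1+/- against WT (adjusted p = 0.306 by edgeR).

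Members with and without a tract by the rule above had close medians. Members whose run begins with T, such as Rps9, Rplp2 and Rps24, count as without one. The split therefore does not separate mRNAs under TOP control from others. In PS19 against WT the 27 tested members with a tract had a median of -0.091 and the 29 without one -0.086. In P301S Tia1+/- against PS19 these were 0.037 and 0.033, and in the interaction 0.092 and 0.102. By shared sequence, the 33 members with over 50% shared had medians of -0.083 in PS19 against WT and 0.068 in P301S Tia1+/- against PS19, and the 6 members with at most 10% shared had -0.078 and 0.114. In P301S Tia1+/- against WT they differed in sign, -0.028 and 0.056. With the length and GC offsets they also did in P301S Tia1+/- against PS19, -0.013 and 0.114.

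Ribosome components with other symbols did not pass the test either, 0 of 7 in each comparison. Their median was -0.141 in PS19 against WT and 0.132 in P301S Tia1+/- against PS19. Gnb2l1 (Rack1), a scaffold on the small subunit, averaged 223 ± 23.1 CPM in WT mice, 216 ± 14.0 in Tia1+/-, 212 ± 14.5 in PS19 mice and 248 ± 3.75 in P301S Tia1+/- (SD, n = 3). Its log2 difference between P301S Tia1+/- and PS19 was 0.23 (SE 0.0905, adjusted p = 0.215 by edgeR). Fau averaged 176, 167, 161 and 180 CPM in the same order.

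Other mRNAs with textbook tracts gave 0 of 15 past the test in each comparison. Their medians were -0.146 in PS19 against WT, 0.077 in P301S Tia1+/- against PS19, -0.116 in Tia1+/- against WT and 0.171 in the interaction. Tpt1, which encodes a translationally controlled protein, averaged 492 ± 51.4 CPM in WT and 376 ± 26.1 in PS19 (log2 difference -0.39, SE 0.0985, adjusted p = 0.160 by edgeR). The elongation factor genes Eef1a1 and Eef2 had log2 differences of -0.01 and -0.02 in the same comparison.

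Among 38 genes of ribosome assembly, 1 passed in 1 comparison, P301S Tia1+/- against WT, where 1.31% of all genes did. Bms1, a GTPase of early small subunit assembly, fell in P301S Tia1+/- against WT, from 61.7 ± 5.49 to 44.0 ± 2.71 CPM (log2 difference -0.49, SE 0.0956, adjusted p = 0.0384 by edgeR). Its means in Tia1+/- and PS19 were 46.5 and 49.6 CPM. The call held in 12 of 26 alternative settings and was lost in the 6-library fit (-0.50, adjusted p = 0.142 by edgeR), with a log2 difference of -0.55 to -0.41 over all 26. When each library was left out in turn the call held in 4 of 12. The list had medians of -0.103 in PS19 against WT, -0.031 in P301S Tia1+/- against PS19 and -0.166 in P301S Tia1+/- against WT, with 6 of 38 above 0 in the last.

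Among 18 genes that signal to ribosomal protein mRNAs, Mycn rose in P301S Tia1+/- against PS19 and no other gene passed in any comparison. In P301S Tia1+/- against PS19 0.24% of all genes passed. Mycn, a transcription factor of the Myc family, averaged 8.61 ± 2.89 CPM in WT mice, 5.16 ± 0.586 in Tia1+/-, 4.44 ± 0.595 in PS19 mice and 11 ± 0.919 in P301S Tia1+/- (log2 difference 1.31, SE 0.220, adjusted p = 0.0440 by edgeR). The bulb genes moved the same way in this comparison, and with their level as a covariate the log2 difference was 0.70 (adjusted p = 0.287 by edgeR). Bulb level and group nearly coincide here, so that fit cannot tell them apart. The call held in the 6-library fit, which called 20.1% of all genes, and in 12 of 26 alternative settings in all. When each library was left out in turn it held in 3 of 12. It was lost with the length and GC offsets (1.28, adjusted p = 0.0584 by edgeR). Mtor averaged 151 ± 11 CPM in PS19 and 203 ± 20.4 in P301S Tia1+/- (0.43, adjusted p = 0.117 by edgeR). Larp1, which holds back mRNAs with a tract, averaged 89.6 ± 7.93 and 71.7 ± 6.52 CPM (-0.32, adjusted p = 0.198 by edgeR). Of 12 genes of ribosome quality control and nucleolar stress, Cdkn1a, the p53 target p21, fell in Tia1+/- against WT, from 32.2 ± 15.2 to 11.4 ± 1.97 CPM (-1.50, SE 0.278, adjusted p = 0.0446 by edgeR). In Tia1+/- against WT 0.712% of all genes passed. The Cdkn1a call held in 9 of 26 alternative settings, and in 1 of 12 when each library was left out in turn. It was lost in the 6-library fit (adjusted p = 0.329 by edgeR) and with the bulb covariate (-0.90, adjusted p = 0.0972 by edgeR).

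Mitochondrial ribosomal proteins, encoded in the nucleus for the separate ribosome of mitochondria, gave 1 of 77 past the test. It passed in Tia1+/- against WT, where 0.712% of all genes did. Mrpl55 rose in Tia1+/- against WT, from 13.7 ± 1.35 to 21.6 ± 1.18 CPM (log2 difference 0.65, SE 0.113, adjusted p = 0.0418 by edgeR). The call held in 9 of 26 alternative settings and was lost in the 6-library fit (0.65, adjusted p = 0.319 by edgeR), and when each library was left out in turn it held in 1 of 12. The medians of the 77 genes were -0.053 in PS19 against WT, 0.036 in P301S Tia1+/- against PS19 and 0.034 in the interaction. Subunits of complex I, also short, gave 0 of 44 and medians of -0.051, 0.075 and 0.072 in these comparisons.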

How the data were processed

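Total RNA of mouse cortex was sequenced in 12 libraries (TruSeq stranded total RNA, paired ends, 60 M reads per sample per the labels). The authors aligned reads to mm10 with TopHat2 (2.0.6 in the submitters' processing notes, another version in the study's methods) and assigned them to genes with featureCounts; the annotation, strand setting and handling of reads with several places are not given in the sources used here. The deposited values are raw counts per gene, without normalization or pooling. Libraries held 11978962 to 19146484 counts. Differences between genotypes were tested with edgeR 4.0.16 (R 4.3.3; TMM scaling, low counts filtered by group, quasi-likelihood test on all 12 libraries, Benjamini-Hochberg adjustment over all genes tested, threshold 0.05). The study's DESeq2 (here 1.42.0) was an alternative. Levels are CPM on TMM-scaled library sizes, divided by GENCODE M21 exon length where levels of different genes are compared (23666 of 24062 symbols matched, 916 through an older symbol). Length and GC trends were fitted with mgcv 1.9.3. The edgeR fits with and without offsets and the DESeq2 fit were tested on simulated counts. That test covered P301S Tia1+/- with PS19 only and gave every gene the same spread, unlike these libraries.

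The members and the gene lists were chosen with earlier results of these data known. Named members were those past the threshold, the 5 largest differences in each direction in PS19 with WT and in P301S Tia1+/- with PS19, the 5 highest levels, and members of set roles, paralogues and X-linked members; Rpl22, Rpl7a, Rpl27, Rpl15, Rpl13a, Rpl23, Rpl12 and others outside this rule were named after their values were seen. Replicate numbers are in the titles. Of 18 pairs of libraries with the same number, 7 had correlated deviations over 0.1 (-0.531 to 0.305), with all 3 pairs over 0.1 only in P301S Tia1+/- with Tia1+/-, which the block described in the closing section covers. Replicates are mice, and no libraries were alike enough to be 1 library deposited again. Values of some items are not reported here.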

Additional observations from a re-analysis of the deposited data

Results flagged for a closer look

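For 3 of the 77 tested members (3.90%) every PS19 library lay below every WT library while every P301S Tia1+/- library lay above every Tia1+/- library. Opposite groups without overlap, by tau or by the deletion, were found for 939 of 15440 genes (6.08%). The members were Rpl7a (interaction 0.23 on the log2 scale, adjusted p = 0.181), Rpl22 (0.32, adjusted p = 0.138) and Rpl18 (0.32, adjusted p = 0.129), so by the edgeR test of the difference itself none passed. Rpl7a, a large subunit protein (81.2% of its stretches shared), was at 277, 268 and 261 CPM in WT mice, 243, 249 and 244 in Tia1+/-, 246, 231 and 253 in PS19 mice and 271, 258 and 253 in P301S Tia1+/-. Rpl18 was at 125, 115 and 112 CPM in WT and 102, 117 and 105 in Tia1+/-, and Rpl22 at 117, 103.5 and 100.4 and at 99.4, 102.5 and 89.7, with the values of the tau groups given above. With length and GC offsets the interactions were 0.17, 0.25 and 0.29, in the order Rpl7a, Rpl22 and Rpl18. Without WT replicate 1 (highest bulb sum) and Tia1+/- replicate 3 (highest striatal sum) they were 0.18, 0.18 and 0.23. The P301S Tia1+/- libraries, with bulb sums of 996 to 1139 CPM, stayed in that fit. It therefore cannot tell bulb content and genotype apart.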

How the results depend on the processing

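No member passed in any of the 6 comparisons by edgeR with all libraries, and 305 of 316 results of the group stayed close under the alternatives run. Close does not mean of the same sign. Some small medians changed sign when a library was left out or with the length and GC offsets. In P301S Tia1+/- with PS19 the number of members called was 1 with the 6 libraries alone (Rps9, beside 3025 of 15075 genes), 2 with DESeq2 on these 6 (Rps9 and Rps2, beside 3087 of 16356), 1 with a replicate block on them (beside 2440 of 15075) and 4 with length and GC offsets on them (Rps9, Rps15, Rps21 and Rpl17, beside 3238 of 14940). It was 0 to 1 when each library in turn was left out (1 without WT replicate 1, Rps9, beside 1606 of 15649 genes) and 2 without both WT replicate 1 and Tia1+/- replicate 3 (beside 3569 of 15560). In P301S Tia1+/- with WT it was 1 by DESeq2 (beside 974 of 13955 genes) and 5 without those 2 libraries (Rps24, Rpl23, Rpl17, Rpl12 and Rps2, all lower, beside 4021 of 15560). In Tia1+/- with WT it was 1 with the bulb covariate (Rps2, beside 1565 of 15440). The interaction median was 0.0149 with length and GC offsets and 0.0147 with the replicate block besides. The causes were not tested. DESeq2, the block and the offsets on 6 libraries, and leaving out both libraries together, were chosen after seeing the data. Leaving out each library gave medians of -0.117 to -0.050 in PS19 with WT, -0.095 to -0.026 in Tia1+/- with WT and 0.046 to 0.124 in the interaction. In P301S Tia1+/- with PS19 they were -0.002 to 0.075, below 0 without PS19 replicate 2 or 3. In P301S Tia1+/- with Tia1+/- they were -0.031 to 0.042, below 0 in 7 of these fits. In P301S Tia1+/- with WT they were -0.076 to 0.008, above 0 without P301S Tia1+/- replicate 3.

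With the replicate block on 12 libraries the medians were -0.085, 0.042, -0.054, 0.018, -0.033 and 0.090 and no member was called. In P301S Tia1+/- with Tia1+/-, where the numbers may pair the mice, the block changed no call of a member. Of 4998 results of named genes under alternatives, 16 passed the threshold that had not, and 0 changed sign past it. The low counts of Rpl34, Rps27 and Rpl30 limit what can be said of them, and 3 mice a group limit the rest.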
